A study of Arabidopsis thaliana with 4 samples.

Results

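The response to abscisic acid (ABA) of Arabidopsis thaliana seedlings that carry a mutation of lincRNA11195, a long intergenic noncoding RNA, was read from 6 of the 12 RNA sequencing libraries of the study. Mutant seedlings in the Col0 background received ABA for 12 h (3 libraries) or no treatment (3 libraries). The other 6 libraries held Col0 wild type seedlings with ABA for 12 h (3 libraries) or untreated (3 libraries). They are used here to test whether the response in the mutant differed from that in wild type. They also entered the read filter, the scaling and the estimate of spread behind each test within the mutant. Seedlings of all 4 groups were 2 weeks old and grew on MS-based medium. The labels name 1 mutant line and give neither its allele, the dose of ABA, nor a mock treatment. The members are all genes of the count table: 33610 were listed and 21322 had enough reads to be tested. The transcript lincRNA11195 itself was not analysed here.

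ABA is the hormone that plants make when water is short and in maturing seeds. In the cell it binds receptors of the PYR/PYL family, which then block clade A protein phosphatases of type 2C (PP2C). Freed from these phosphatases, SnRK2 kinases phosphorylate bZIP transcription factors, which bind the ABA response element (ABRE) in promoters and switch on genes for protective proteins. In guard cells the same kinases act on ion channels and close the stomata, and growth and photosynthesis genes are turned down.

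The promoters of 3 genes that were among the most induced of their lists show this element. RD29B is a classic marker of ABA treatment, RAB18 encodes a dehydrin, and HAI2 encodes a clade A PP2C. Each sequence runs from 250 bases before to 50 bases after the annotated start of the gene in the RefSeq annotation of TAIR10.1, 5′ to 3′ in the direction of transcription. The start is the outer end of the gene record and not that of a chosen transcript. Capitals mark each match to the ABRE core ACGTGNC on either strand.
RD29B (TAIR10.1, chr5:21236771-21237070, plus strand): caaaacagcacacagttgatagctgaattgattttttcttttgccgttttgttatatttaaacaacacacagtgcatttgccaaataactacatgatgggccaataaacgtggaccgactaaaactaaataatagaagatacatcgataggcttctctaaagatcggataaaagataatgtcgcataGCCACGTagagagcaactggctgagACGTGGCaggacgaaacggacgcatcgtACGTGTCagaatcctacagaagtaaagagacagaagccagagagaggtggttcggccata
RAB18 (TAIR10.1, chr5:26519398-26519697, minus strand): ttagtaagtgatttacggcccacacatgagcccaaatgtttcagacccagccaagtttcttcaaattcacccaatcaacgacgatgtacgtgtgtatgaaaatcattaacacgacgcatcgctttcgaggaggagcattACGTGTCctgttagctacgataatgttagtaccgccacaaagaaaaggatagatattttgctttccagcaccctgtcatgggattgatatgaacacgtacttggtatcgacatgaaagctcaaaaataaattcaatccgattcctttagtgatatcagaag
HAI2 (TAIR10.1, chr1:2282779-2283078, minus strand): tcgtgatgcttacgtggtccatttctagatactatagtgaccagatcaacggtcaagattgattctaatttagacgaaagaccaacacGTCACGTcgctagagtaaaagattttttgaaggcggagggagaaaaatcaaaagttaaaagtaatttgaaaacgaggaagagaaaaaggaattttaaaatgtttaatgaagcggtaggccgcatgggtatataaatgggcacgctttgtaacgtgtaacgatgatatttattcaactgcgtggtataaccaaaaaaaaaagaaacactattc
The RD29B window held 3 matches and those of RAB18 and HAI2 held 1 each.

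Total counts were 19262909, 17988131 and 18010633 in mutant ABA replicates 1 to 3, against 14691544, 20224157 and 22477294 in mutant untreated replicates 1 to 3. Among the 6 mutant libraries the first principal component held 79.9% of the variance and the second 10.7%. Seedlings are whole plants, so fewer cells of a type and less RNA per cell cannot be told apart in any value below. Markers of shoot and root were present: the 20 light-harvesting antenna genes summed to 1945, 1232 and 2608 CPM with ABA, against 1514, 2528 and 3502 CPM untreated, and the 13 root markers to 176, 129.8 and 141 CPM, against 159.997, 179 and 208 CPM. Of 6 floral and pollen markers 3 had enough reads to be tested, with summed levels of at most 3.58 CPM in any mutant library, and of 8 seed and embryo markers 2 did.

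Levels are normalised read counts scaled to library size (CPM), listed for replicates 1, 2 and 3 in that order. A gene was called when the adjusted p of edgeR's quasi-likelihood test was under 0.05, and each log2 fold change (ABA over untreated) is given ± its standard error. In the mutant 4580 genes were called higher with ABA, 21.5% of those tested, and 4490 lower, 21.1%. These shares are the background for every list count in the mutant given below. The median log2 fold change of all genes was -0.0042. Every treated mutant library lay above every untreated one for 5511 genes, 25.8% of those tested, and below for 5194, 24.4%. Statements below that libraries did not overlap are to be read beside these shares. Of the called genes, 1974 rose (9.26% of genes tested) and 2111 fell (9.9%) by at least 1 on the log2 scale, 733 rose (3.44%) and 641 fell (3.01%) by at least 2, and 193 rose (0.905%) and 136 fell (0.638%) by at least 4. In wild type 53.4% of genes were called, 5376 higher (25.2%) and 6012 lower (28.2%). Of the genes called higher, 3813 were also called higher in wild type, 721 were not called there and 46 were called lower. Of the genes called lower, 3654 were also called lower in wild type, 827 were not called there and 9 were called higher. Scaling by upper-quartile factors shifted the median of all genes to -0.12 and changed the calls to 3647 higher and 5515 lower, so that the higher share of calls was 39.8%, against 50.5% with the scaling used here.

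All measured clade A PP2C phosphatases, which hold the ABA signal down, rose with ABA, and so did 5 of 6 genes of ABA synthesis and every CYP707A gene of ABA breakdown, while 7 of 10 receptor genes fell. Among the genes of ABA synthesis the rate-limiting dioxygenase NCED3 reached 9.52, 6.21 and 12.4 CPM with ABA, against 0.791, 1.96 and 1.42 CPM untreated (2.73 ± 0.34, adjusted p 5.19e-05). AAO3, the aldehyde oxidase of the last step, stood at 150.1, 124 and 65.2 CPM with ABA, against 31.5, 27.6 and 27.5 CPM untreated (1.97 ± 0.33, adjusted p 0.000473). The treated and untreated libraries did not overlap for either gene, and mutant ABA replicate 3 was the lowest treated library for AAO3. The zeaxanthin epoxidase ABA1 (0.87 ± 0.24) and ABA4 (0.75 ± 0.18) rose by smaller steps, and for ABA1 the call was lost without mutant ABA replicate 1 (adjusted p 0.0569). The short-chain dehydrogenase gene ABA2 was not called. Without mutant ABA replicate 1, 3 synthesis genes were called higher. The 4 other NCED genes listed had too few reads to be tested.

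The CYP707A genes encode the hydroxylases that break ABA down. CYP707A1 had 148, 140.5 and 134 CPM with ABA, against 6.21, 7.49 and 7.24 CPM untreated (4.33 ± 0.16, adjusted p 9.54e-09), the smallest adjusted p of the breakdown list. CYP707A4 had 38.6, 50.1 and 34.6 CPM with ABA, against 2.86, 2.38 and 1.69 CPM untreated (4.17 ± 0.22) and CYP707A2 had 61.5, 59.97 and 65.7 CPM with ABA, against 12.5, 14.3 and 11.4 CPM untreated (2.29 ± 0.14). In all 3 genes every treated library lay above every untreated one. CYP707A3 rose less, with 31, 39.4 and 28.1 CPM with ABA, against 19.7, 17.1 and 16.8 CPM untreated (0.88 ± 0.15, adjusted p 0.000441), and this response was smaller than the wild type log2 fold change of 2.75 (difference -1.88 ± 0.22, adjusted p 0.00172). Among the genes of ABA conjugation the glucosyltransferase UGT71C5 was called lower (-0.90 ± 0.28), but its libraries overlapped. The call was lost without mutant ABA replicates 1 and 2 and mutant untreated replicate 3, each left out alone (adjusted p 0.064 to 0.117). A fit of only the 6 mutant libraries did not call UGT71C5 either (adjusted p 0.0509).

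ABA is moved across membranes by transporters of several families, and 3 of 7 measured transporter genes rose and 1 fell. ABCG22, whose loss raises water loss from leaves, had 97.3, 87.6 and 112 CPM with ABA, against 14.1, 19.5 and 15.8 CPM untreated (2.59 ± 0.16, adjusted p 1.66e-07), and the exporter gene ABCG25 had 33.7, 24.3 and 24.7 CPM with ABA, against 7.6, 10.5 and 11.5 CPM untreated (1.47 ± 0.25, adjusted p 0.000497). ABCG40, an importer gene, was the member called lower, with 3.01, 1.07 and 1.44 CPM with ABA, against 6.69, 15.1 and 12.4 CPM untreated (-2.63 ± 0.77, adjusted p 0.0154), and the call was lost without mutant ABA replicate 2 (adjusted p 0.0598). For ABCG30 (0.98 ± 0.30) the call was lost without mutant ABA replicates 1 and 2 and mutant untreated replicates 1 and 2, each left out alone (adjusted p 0.0508 to 0.0744).

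The receptor genes split in direction, with 3 of 10 called higher and 7 lower and a list median of -1.43. PYL6 had 1 read in the 3 treated libraries together, against 537 reads untreated, a level 523-fold lower (exact 95% counting interval 93.6 to 20715). PYL4 had 2.2, 2.39 and 1.49 CPM with ABA, against 41.4, 45 and 50.3 CPM untreated (-4.48 ± 0.24, adjusted p 7.39e-08) and PYL5 had 2.71, 1.78 and 1.22 CPM with ABA, against 22.02, 15.8 and 14.3 CPM untreated (-3.18 ± 0.29, adjusted p 3.72e-06). In each of the 3 genes every treated library lay below every untreated one. PYR1 had 6.81, 6.92 and 8.19 CPM with ABA, against 22.9, 23.9 and 33 CPM untreated (-1.87 ± 0.18, adjusted p 6.67e-06). The fall of PYR1 was smaller than the wild type log2 fold change of -3.02 (difference 1.15 ± 0.25, adjusted p 0.0381), and the call was lost without mutant ABA replicates 1, 2 and 3, mutant untreated replicates 1 and 2, wild type ABA replicates 2 and 3 and wild type untreated replicates 1, 2 and 3, each left out alone (adjusted p 0.0534 to 0.153). PYL7 rose, with 34.6, 31 and 28.6 CPM with ABA, against 15, 12.6 and 13.1 CPM untreated (1.21 ± 0.15, adjusted p 3.69e-05). PYL9 (0.51 ± 0.16) and PYL3 (2.26 ± 0.73) were also called higher. For PYL9 the call was lost without mutant ABA replicates 1 and 2 and mutant untreated replicates 2 and 3, each left out alone (adjusted p 0.0535 to 0.0935), and for PYL3, at most 0.551 CPM in any mutant library, the call was lost without mutant ABA replicate 1 and mutant untreated replicates 1 and 3, each left out alone (adjusted p 0.0602 to 0.126). The 4 further receptor genes, PYL10 to PYL13, had too few reads to be tested.

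The 8 PP2C genes with enough reads all rose, and the list median of 3.82 stood beside a wild type median of 4.05 with no member called in the test of the difference. ABI1, the phosphatase gene first found through ABA-insensitive mutants, had 489.7, 495 and 356 CPM with ABA, against 65.4, 51.9 and 48.7 CPM untreated (3.01 ± 0.21, adjusted p 4.58e-07). ABI2, a close paralogue, had 119, 122 and 90.8 CPM with ABA, against 7.06, 7.92 and 7.55 CPM untreated (3.88 ± 0.16, adjusted p 1.65e-08). PP2CA had 232, 189 and 212 CPM with ABA, against 9.61, 20.08 and 17.1 CPM untreated (3.76 ± 0.26, adjusted p 3.67e-07). In these genes every treated library lay above every untreated one. The genes HAI1 and HAI2 were close to silent without ABA. HAI1 had 55.1, 42.6 and 53.7 CPM with ABA, against 0.183, 0.763 and 0.533 CPM untreated (6.6 ± 0.57, adjusted p 2.41e-06). HAI2, whose promoter is printed above, had 34.4, 27.6 and 37.9 CPM with ABA, against 0.183, 0.382 and 0.0444 CPM untreated (7.33 ± 0.46, adjusted p 2.05e-07), with a log2 fold change of 8.24 without mutant untreated replicate 2. The response of the list ran from 1.42 to 7.33.

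Of the 10 SnRK2 kinase genes 6 rose, 1 fell and 3 were not called, with a median of 0.61. OST1, the kinase that starts the guard cell response to ABA, had 99.2, 97.4 and 75.1 CPM with ABA, against 36.4, 26.8 and 22.4 CPM untreated (1.67 ± 0.21, adjusted p 6.26e-05). SNRK2.7 had 32.1, 42.3 and 32.6 CPM with ABA, against 6.63, 6.96 and 5.06 CPM untreated (2.52 ± 0.21, adjusted p 1.45e-06) and SNRK2.9 55.9, 60.2 and 46.8 CPM with ABA, against 21.7, 15.69 and 15.5 CPM untreated (1.63 ± 0.16, adjusted p 7.96e-06). In each of these 3 genes the libraries did not overlap. SNRK2.5 was the kinase gene called lower (-0.64 ± 0.20), and the call was lost without mutant ABA replicates 1 and 2 and mutant untreated replicate 1, each left out alone (adjusted p 0.0554 to 0.0943).

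**Figure D1:**
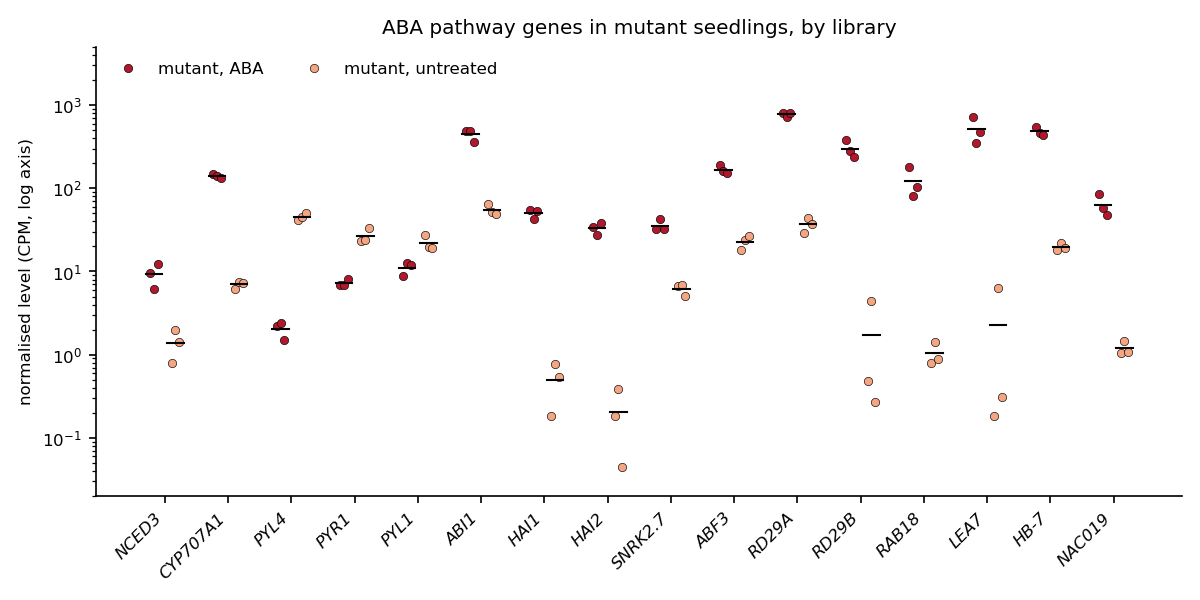
Normalised level (CPM, log axis) of genes of ABA synthesis, breakdown, signalling and response in the 3 mutant libraries with ABA and the 3 untreated mutant libraries. Points are libraries and black lines are means of 3. PYL4, PYR1 and PYL1 lay lower with ABA and the other genes higher, with RD29A at 798, 728 and 801 CPM with ABA.

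The bZIP factors that carry the signal to the promoter rose in 6 of 8 cases, and EEL and AREB3 were not called. GBF3 had 142, 137 and 119 CPM with ABA, against 11.9, 12.5 and 13.4 CPM untreated (3.39 ± 0.16, adjusted p 3.62e-08), ABF3 had 190.1, 163 and 151 CPM with ABA, against 17.9, 23.61 and 27 CPM untreated (2.88 ± 0.19, adjusted p 2.51e-07) and ABF2 had 107, 93.5 and 91.5 CPM with ABA, against 28.2, 29.4 and 34.7 CPM untreated (1.66 ± 0.13). ABI5, best known from seeds, rose at a low level to 11.6, 9.36 and 10.2 CPM, against 1.7, 1.53 and 1.64 CPM untreated (2.68 ± 0.21, adjusted p 1.25e-06). For these 4 factors no untreated library reached a treated one. Of the ABI5-binding proteins and E3 ligases, which damp the pathway, 5 of 10 rose and none fell. AFP1 had 113, 116 and 92.8 CPM with ABA, against 4.08, 2.62 and 2.89 CPM untreated (5.08 ± 0.21, adjusted p 1.65e-08), AFP3 had 119.995, 94.5 and 110.3 CPM with ABA, against 4.5, 9.11 and 8.8 CPM untreated (3.85 ± 0.24), and the U-box ligase PUB19 had 63.1, 47.4 and 50.2 CPM with ABA, against 1.22, 2.96 and 1.95 CPM untreated (4.69 ± 0.28).

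Stress and senescence NAC factors rose in 10 of 13 cases and drought-linked MYB and HD-Zip factors in 10 of 12, with list medians of 1.56 and 2.56. RD26 had 269, 226 and 208 CPM with ABA, against 9.67, 11.8 and 9.42 CPM untreated (4.51 ± 0.30, adjusted p 2.82e-07), NAC019 had 85, 58.3 and 47.2 CPM with ABA, against 1.03, 1.48 and 1.07 CPM untreated (5.72 ± 0.47, adjusted p 1.52e-06), and NAP, a regulator of leaf senescence, had 172, 129 and 69.7 CPM with ABA, against 9.25, 8.06 and 9.2 CPM untreated (3.81 ± 0.61, adjusted p 0.000355). For NAP and NAC019 mutant ABA replicate 3 was the lowest treated library. The homeodomain factors HB-7 and HB-12 reached 544, 462 and 443 CPM and 260.3, 225 and 181 CPM with ABA, against 17.9, 21.7 and 19.3 CPM and 17.8, 12.9 and 11.7 CPM untreated (4.62 ± 0.23 and 3.97 ± 0.22). MYB41 and MYB74 rose by 3.55 and 4.29 on the log2 scale. MYB96, an activator of wax genes, had 70.04, 73.6 and 55.7 CPM with ABA, against 39.7, 28.3 and 21.99 CPM untreated (1.15 ± 0.21, adjusted p 0.000954), a smaller response than the wild type 3.09 (difference -1.94 ± 0.31, adjusted p 0.00739). MYB60, a factor of guard cells that promotes stomatal opening, was the member called lower, with 9.57, 11.6 and 11.9 CPM with ABA, against 26.2, 21.3 and 17.1 CPM untreated (-0.96 ± 0.19, adjusted p 0.0015).

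Guard cell genes moved in both directions, with 5 of 11 higher and 4 lower. GORK, the potassium channel that lets potassium out of guard cells, had 93.2, 96.5 and 68.2 CPM with ABA, against 19.1, 17.3 and 16 CPM untreated (2.3 ± 0.17, adjusted p 8.39e-07). ALMT12, an anion channel gene, rose by 1.26 ± 0.18 and the NADPH oxidase gene RBOHF by 1.3 ± 0.18. The inward potassium channel gene KAT2 fell to 15.5, 10.8 and 6.7 CPM with ABA, against 32.4, 25 and 25.8 CPM untreated (-1.33 ± 0.29, adjusted p 0.00302). RBOHD (-0.88 ± 0.15) and the receptor-like kinase gene GHR1 (-0.98 ± 0.19) also fell. KAT1, a second inward channel, was not called in the mutant (-0.45 ± 0.18, adjusted p 0.0624), and its response differed from the wild type 0.68 (difference -1.12 ± 0.25, adjusted p 0.0442), though the call was lost without mutant ABA replicates 1 and 3, mutant untreated replicates 1 and 2, wild type ABA replicates 1, 2 and 3 and wild type untreated replicates 1 and 2, each left out alone (adjusted p 0.0781 to 0.118). HT1, at most 2.89 CPM in any mutant library, was called lower (-0.81 ± 0.31), and the call was lost without mutant ABA replicates 2 and 3, mutant untreated replicates 2 and 3, wild type ABA replicates 1 and 2 and wild type untreated replicates 1, 2 and 3, each left out alone (adjusted p 0.0546 to 0.174).

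All 12 measured genes of the RD29, COR15, KIN and other late embryogenesis abundant (LEA) list rose, with a median of 5.3, or 5.06 with the 3 genes of at most 3 untreated reads set at their count ratio or bound. RD29A had 798, 728 and 801 CPM with ABA, against 29, 44 and 37.4 CPM untreated (4.4 ± 0.33, adjusted p 8.03e-07). RD29B had 376, 284 and 235 CPM with ABA, against 0.487, 4.39 and 0.267 CPM untreated (7.42 ± 1.34, adjusted p 0.00079), and its log2 fold change was 9.65 without mutant untreated replicate 2, the library with the highest untreated level. COR15A, a chloroplast protein gene also raised by cold, had 430.3, 370.2 and 712 CPM with ABA, against 7.18, 13.8 and 15.1 CPM untreated (5.38 ± 0.37, adjusted p 3.55e-07). In these 3 genes every treated library lay above every untreated one. EM1, which is best known from seeds, had 28 reads with ABA and 0 untreated, so its level was at least 9.57-fold higher.

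Of the LEA list, KIN1 and KIN2, neighbouring genes of small stress proteins, were the 2 members whose difference from wild type was called. Both responded more in the mutant. Over the 12 members the difference had a median of 1.22 and ran from -0.14 to 3.02. KIN1 had 271, 213 and 306 CPM in the mutant with ABA, 5.6, 6.53 and 3.55 CPM in the untreated mutant, 461, 336 and 281 CPM in wild type with ABA and 72.7, 73.9 and 26.9 CPM in untreated wild type, which gave a difference of 3.02 ± 0.49, adjusted p 0.00874 on the log2 scale. KIN2 had 289.8, 257 and 321 CPM in the mutant with ABA, 21.7, 19.2 and 19.99 CPM in the untreated mutant, 444, 315 and 304 CPM in wild type with ABA and 81.8, 159.6 and 76.3 CPM in untreated wild type (difference 2.09 ± 0.36, adjusted p 0.0111), and the call was lost without mutant untreated replicate 2 (adjusted p 0.0561). For both genes the untreated mutant libraries lay below the untreated wild type ones. The genes are close copies, and the sources used here do not say how shared reads were assigned.

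Dehydrins are hydrophilic proteins of drying tissue, and 6 of 7 rose. RAB18 had 181, 80.1 and 104 CPM with ABA, against 0.791, 1.43 and 0.888 CPM untreated (6.86 ± 0.86, adjusted p 5.04e-05), and mutant ABA replicate 1 was its highest library. LTI30 had 843, 785 and 735 CPM with ABA, against 71.7, 61.6 and 62.4 CPM untreated (3.59 ± 0.25, adjusted p 4.07e-07) and ERD14 1099, 904 and 957 CPM with ABA, against 239.8, 219 and 219 CPM untreated (2.13 ± 0.17, adjusted p 1.44e-06). ERD10 had 1018, 748 and 967 CPM with ABA, against 109, 176 and 178 CPM untreated (2.56 ± 0.22). HIRD11 was not called.

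Compatible solutes are small molecules that protect cells from water loss. The proline synthesis gene P5CS1 had 644, 499 and 525 CPM with ABA, against 33.3, 42.3 and 43.6 CPM untreated (3.81 ± 0.20, adjusted p 7.39e-08), and its paralogue P5CS2 rose by 0.75 ± 0.15. The proline breakdown gene ALDH12A1 also rose (1.21 ± 0.12). The 9 proline genes held 3 calls higher and 2 lower, P5CR (-0.67 ± 0.21) and PROT3 (-1.11 ± 0.42), both fragile. For P5CR the call was lost without mutant ABA replicates 1 and 2 and mutant untreated replicates 2 and 3, each left out alone (adjusted p 0.0638 to 0.0882). For PROT3 the call was lost without mutant ABA replicates 1 and 2, mutant untreated replicates 1, 2 and 3, wild type ABA replicate 2 and wild type untreated replicates 1, 2 and 3, each left out alone (adjusted p 0.054 to 0.162). Galactinol synthases start raffinose synthesis, and 3 of 6 measured genes of that list rose. GOLS2 had 16, 13.5 and 14.2 CPM with ABA, against 0.243, 0.668 and 0.311 CPM untreated (5.11 ± 0.37, adjusted p 6.29e-07), GOLS4 had 60.8, 50.7 and 67.1 CPM with ABA, against 2.13, 4.48 and 3.29 CPM untreated (4.16 ± 0.27, adjusted p 2.37e-07), and GOLS1 rose by 1.82 ± 0.26. GOLS3 had 2 reads with ABA and 18 untreated, 8.77-fold lower (interval 2.1 to 78). For GOLS3 the call was lost without mutant ABA replicates 2 and 3, mutant untreated replicates 1, 2 and 3 and wild type untreated replicate 3, each left out alone (adjusted p 0.0509 to 0.118), and also with the replicate block. The stachyose synthase gene STS was lower, with 2.66, 2.7 and 2.18 CPM with ABA, against 6.27, 5.25 and 5.06 CPM untreated (-1.13 ± 0.17, adjusted p 0.000238).

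Of 15 antioxidant genes 2 were higher and 4 lower. The cytosolic ascorbate peroxidase gene APX2 had 13.9, 11.3 and 9.74 CPM with ABA, against 0.122, 0 and 0.0888 CPM untreated (7.31 ± 0.60, adjusted p 1.61e-06), and the catalase gene CAT1 had 103, 65.1 and 64.5 CPM with ABA, against 21.96, 34 and 41.2 CPM untreated (1.26 ± 0.33). The copper/zinc superoxide dismutase genes CSD1 (-1.0 ± 0.27) and CSD2 (-1.81 ± 0.33) fell. The lower calls numbered 2 without mutant ABA replicates 1 and 2 and mutant untreated replicates 2 and 3, each left out alone.

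Most genes of the barrier lipids rose. Of 14 cuticular wax genes 11 were higher and 1 lower, and of 11 suberin genes 10 were higher. CER1, an enzyme of alkane formation, had 77.9, 64.9 and 89.3 CPM with ABA, against 6.996, 14.2 and 11.6 CPM untreated (2.82 ± 0.26, adjusted p 4.37e-06). The wax ester synthase gene WSD1 had 15.6, 20.8 and 20.11 CPM with ABA, against 2.68, 1.43 and 0.622 CPM untreated (3.62 ± 0.39, adjusted p 1.38e-05), and KCS2, which elongates very long chain fatty acids for suberin and wax, had 115, 111 and 73.4 CPM with ABA, against 12.3, 12.8 and 12.2 CPM untreated (3.01 ± 0.26, adjusted p 2.04e-06). CER4, a fatty acyl reductase gene, fell to 2.35, 2.54 and 3.99 CPM with ABA, against 8.82, 7.44 and 7.64 CPM untreated (-1.43 ± 0.33, adjusted p 0.00418). LTPG1, a lipid transfer protein gene, was not called (0.38 ± 0.19, adjusted p 0.118) and differed from the wild type -1.04 (difference 1.42 ± 0.27, adjusted p 0.0167), though the call was lost without mutant untreated replicate 2 and wild type untreated replicate 2, each left out alone (adjusted p 0.0515 to 0.0677). Among suberin genes the reductase FAR1 had 100.5, 97.1 and 63.7 CPM with ABA, against 20.9, 15.5 and 16.5 CPM untreated (2.31 ± 0.20, adjusted p 2.52e-06) and the feruloyl transferase ASFT had 189, 175 and 209 CPM with ABA, against 53.7, 51.1 and 48.5 CPM untreated (1.9 ± 0.15, adjusted p 1.07e-06). FAR4 (1.59 ± 0.16) and CYP86B1 (1.06 ± 0.11) rose with them, and ABCG20 was not called.

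**Figure D2:**
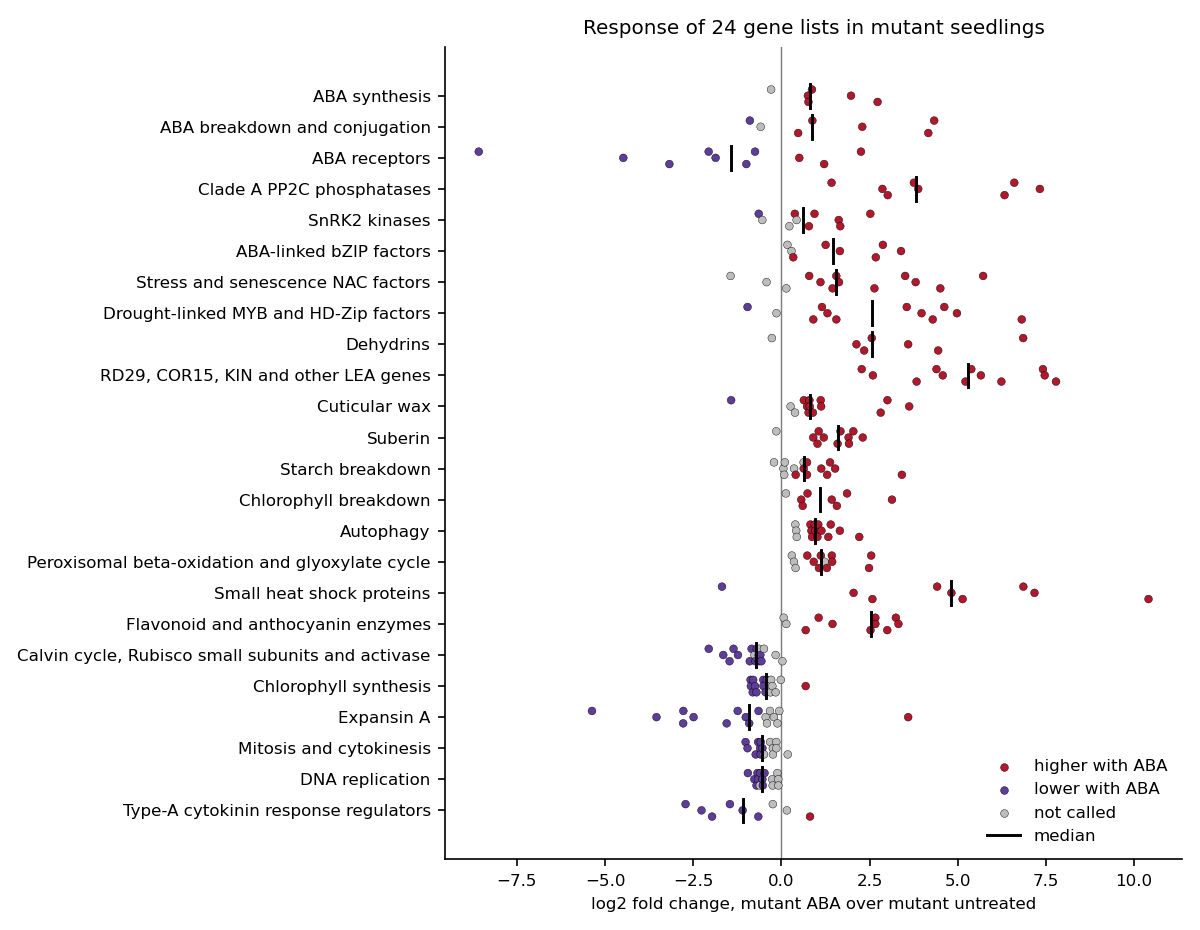
Log2 fold change (ABA over untreated) in mutant seedlings of each measured member of 24 gene lists, 1 row per list. Points are genes, coloured by their call, and black bars are list medians. The clade A PP2C row lies wholly above 0 and the receptor row runs from -8.58 to 2.26.

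Most genes of chlorophyll breakdown and autophagy rose. Chlorophyll breakdown genes were higher in 7 of 8 cases with none lower, autophagy genes in 12 of 15 and genes of peroxisomal beta-oxidation and the glyoxylate cycle in 9 of 13, again with none lower. SGR1, which removes magnesium from chlorophyll, had 106, 73.1 and 58.9 CPM with ABA, against 27.5, 19.6 and 18.7 CPM untreated (1.86 ± 0.30, adjusted p 0.000364), and its paralogue SGR2 had 24.3, 19.4 and 11.4 CPM with ABA, against 2.68, 2.19 and 1.47 CPM untreated (3.13 ± 0.41, adjusted p 6.84e-05). The pheophytinase gene PPH rose by 1.57 ± 0.24 and the pheophorbide oxygenase gene PAO by 1.43 ± 0.26. Mutant ABA replicate 1 was the highest and replicate 3 the lowest treated library in all 4 genes. Among the autophagy genes ATG8H had 137, 98.2 and 79.9 CPM with ABA, against 27.3, 20.9 and 20.12 CPM untreated (2.21 ± 0.30, adjusted p 8.72e-05) and ATG8A 213, 184 and 159 CPM with ABA, against 72, 54 and 50.5 CPM untreated (1.66 ± 0.20, adjusted p 3.34e-05). The peroxisomal citrate synthase gene CSY3 had 159, 120.4 and 120.3 CPM with ABA, against 22.8, 22.5 and 23.1 CPM untreated (2.55 ± 0.20, adjusted p 1.02e-06) and the acyl-CoA oxidase gene ACX2 172, 123 and 109 CPM with ABA, against 44.7, 50.3 and 55 CPM untreated (1.43 ± 0.26, adjusted p 0.000776).

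Starch breakdown genes were higher in 9 of 15 cases and none was lower. The alpha-amylase gene AMY1 had 10.4, 10.7 and 4.73 CPM with ABA, against 0.913, 0.668 and 0.844 CPM untreated (3.42 ± 0.35, adjusted p 9.54e-06). The debranching enzyme gene ISA3 (1.52 ± 0.17), the maltose exporter gene MEX1 (1.38 ± 0.16) and the phosphoglucan phosphatase gene SEX4 (1.13 ± 0.21) rose as well. Sugar transporters split, with 5 of 14 higher and 4 lower, shares of 35.7% and 28.6% against 21.5% and 21.1% of all genes. SWEET15, also called SAG29 and linked to senescence, reached 275, 316 and 296 CPM with ABA, against 0.73, 0.954 and 0.533 CPM untreated (8.64 ± 0.70, adjusted p 1.41e-06). SWEET4 had 105, 126 and 74.5 CPM with ABA, against 7.42, 2.67 and 2.49 CPM untreated (4.63 ± 0.38, adjusted p 1.53e-06), a log2 fold change of 5.3 without mutant untreated replicate 1, and SWEET13 rose by 2.51 ± 0.13. The hexose transporter genes ERD6 (-2.0 ± 0.18) and STP4 (-0.78 ± 0.14) and the vacuolar SWEET16 (-1.63 ± 0.30) fell.

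Of 11 genes of branched-chain amino acid breakdown 5 were higher, with AT1G21400 at 263, 163 and 167 CPM with ABA, against 37, 34.6 and 67.6 CPM untreated (2.09 ± 0.34, adjusted p 0.000349) and D2HGDH at 1.27 ± 0.22 on the log2 scale. Without mutant untreated replicate 2, or without mutant ABA replicate 1, 3 of them were called. Of 11 sugar-starvation genes 4 were called higher, a count of 1 without mutant untreated replicate 2 and 2 without mutant ABA replicate 1. ASN1, the dark-induced asparagine synthetase gene, had 329, 59.9 and 79.1 CPM with ABA, against 17.8, 31.3 and 62.1 CPM untreated (2.07 ± 0.67, adjusted p 0.0247). Mutant ABA replicate 1 held a level several times that of the other treated libraries, the groups overlapped, and without that library the log2 fold change was 0.90. Nitrate transport and assimilation genes were called in 2 of 15 cases, both higher. For 1 of them, NRT1.8 (1.12 ± 0.38), the call was lost without mutant ABA replicates 1 and 2 and mutant untreated replicates 1, 2 and 3, each left out alone (adjusted p 0.0506 to 0.105), and most alternatives called 1 or 2 genes of the list lower. NRT1.7, which moves nitrate out of old leaves, had 174, 148 and 193 CPM with ABA, against 63.5, 83.4 and 92.2 CPM untreated (1.11 ± 0.17, adjusted p 0.000228).

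Few genes of the light-harvesting antenna were called in the mutant. Of the 20 light-harvesting antenna genes, whose proteins hold most of the chlorophyll, 2 were called higher and 2 lower with ABA, shares of 10% each against 21.5% and 21.1% of all genes. In wild type 18 of 20 were called lower and none higher, and the difference between genotypes was called for 6, against 1.66% of all genes tested with a higher response in the mutant. The list median was -0.31 in the mutant and -1.85 in wild type. LHCB6, an inner antenna gene of photosystem II, had 19, 16.4 and 32.7 CPM in the mutant with ABA, 22.4, 27.6 and 34.4 CPM in the untreated mutant, 33.1, 26.9 and 32.5 CPM in wild type with ABA and 323, 459.9 and 243 CPM in untreated wild type, a difference of 3.16 ± 0.40, adjusted p 0.00236. LHCB4.1 had 96.6, 63.6 and 114 CPM in the mutant with ABA, 79.998, 114 and 157 CPM in the untreated mutant, 154, 117 and 112 CPM in wild type with ABA and 944, 1109 and 822 CPM in untreated wild type (difference 2.55 ± 0.37, adjusted p 0.00437). LHCB1.5 had 16.6, 12.3 and 12.1 CPM in the mutant with ABA, 5.35, 4.34 and 6.62 CPM in the untreated mutant, 48.5, 34.7 and 19.8 CPM in wild type with ABA and 197, 219.9 and 187 CPM in untreated wild type (difference 3.88 ± 0.39, adjusted p 0.00105). In all 3 genes the untreated wild type libraries stood above the 9 others. Correcting for GC content and length of the genes gave smaller differences, 2.07 for LHCB6, 1.74 for LHCB4.1 and 2.51 for LHCB1.5, all still called. The same correction ended the calls of 9 other named differences, those of PSAD-2 (0.55, adjusted p 0.439), PSAG (0.5, adjusted p 0.249), WRKY18, CHLM, PYR1, PBS3, HSFB2A, AT3G63390 and AT4G12735, and gave 1.03 for PSAE-1.

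The other antenna differences lost their call when single libraries were left out. For LHCB1.3, a main antenna protein gene at 347, 198 and 400.3 CPM with ABA, against 201, 377 and 597 CPM untreated in the mutant, the difference was 2.46 ± 0.52, adjusted p 0.0312, and the call was lost without mutant ABA replicates 1 and 3, mutant untreated replicate 2, wild type ABA replicates 2 and 3 and wild type untreated replicates 1 and 2, each left out alone (adjusted p 0.0644 to 0.119). For LHCB1.2 (2.82 ± 0.49, adjusted p 0.0111) the call was lost without mutant untreated replicate 2 (adjusted p 0.0544), and for LHCB2.1 (1.74 ± 0.35, adjusted p 0.0252) the call was lost without mutant ABA replicate 3, mutant untreated replicates 1 and 2, wild type ABA replicates 2 and 3 and wild type untreated replicates 1 and 2, each left out alone (adjusted p 0.0504 to 0.106). The genes LHCB1.1 to LHCB1.5 are close copies, so their levels depend on how shared reads were assigned. In the mutant the antenna sum was lowest in mutant ABA replicate 2 and mutant untreated replicate 1. The number of antenna genes called lower was 0 without mutant ABA replicate 2 and mutant untreated replicate 3, 1 without mutant ABA replicate 1, 4 without mutant ABA replicate 3 and 6 without mutant untreated replicate 1, each left out alone. LHCB1.5 was called higher in the mutant (1.33 ± 0.28, adjusted p 0.0024). The calls of LHCB1.4 (3.07 ± 0.91), LHCB1.1 (-1.46 ± 0.43) and LHCB4.3 (-1.09 ± 0.34) were each lost when single mutant libraries were left out, with adjusted p of up to 0.0843, 0.0814 and 0.124.

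Of 26 nuclear genes for photosystem and electron transport subunits 4 were lower with ABA in the mutant and none higher, against 23 lower in wild type, and the difference was called for 6. PSBY had 94.5, 77.5 and 102 CPM in the mutant with ABA, 137, 131 and 192 CPM in the untreated mutant, 107, 118 and 92.3 CPM in wild type with ABA and 559.6, 626 and 560.4 CPM in untreated wild type (difference 1.71 ± 0.25, adjusted p 0.00437). PSAL had 156, 129 and 207 CPM in the mutant with ABA, 133, 149 and 224 CPM in the untreated mutant, 217, 192 and 180.2 CPM in wild type with ABA and 969, 1410.3 and 1014 CPM in untreated wild type (difference 2.49 ± 0.34, adjusted p 0.00337). PSBW gave a difference of 1.83 ± 0.27, adjusted p 0.00437 and PSAE-1 of 1.83 ± 0.33, adjusted p 0.0148. For PSAE-1 the call was lost without mutant untreated replicate 2 and wild type ABA replicate 2, each left out alone (adjusted p 0.0571 to 0.0625). The differences of PSAD-2 (0.94 ± 0.19) and PSAG (0.92 ± 0.19) lost their call in 9 and 10 of the 12 fits that left out a library. Ferredoxin gene FD2 was lower in the mutant, with 301, 256 and 387 CPM with ABA, against 474, 597 and 661 CPM untreated (-0.88 ± 0.19, adjusted p 0.00304). The count of members called lower was 2 without mutant ABA replicate 1, 11 without mutant ABA replicate 3 and 12 without mutant untreated replicate 1.

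Of 18 genes of the Calvin cycle, Rubisco small subunits and activase, 13 were lower and none higher, with a median of -0.72. The small subunit gene RBCS1B had 451, 277 and 575 CPM with ABA, against 843, 1918 and 2671 CPM untreated (-2.06 ± 0.36, adjusted p 0.000592), RBCS2B had 713, 437 and 870.4 CPM with ABA, against 1260.3, 2267 and 2809 CPM untreated (-1.65 ± 0.30, adjusted p 0.000773) and RBCS3B had 919.8, 569 and 1139.8 CPM with ABA, against 1295, 2661 and 3324 CPM untreated (-1.47 ± 0.32). Untreated replicate 1 was the lowest untreated library in all 3, and no treated library reached it. The phosphoribulokinase gene PRK had 921, 736 and 919.6 CPM with ABA, against 1262, 1391 and 1639 CPM untreated (-0.74 ± 0.17, adjusted p 0.00373). In wild type 17 of 18 fell, and the difference was called for 3. FBA1 had 69.2, 46.7 and 99.2 CPM in the mutant with ABA, 106, 175 and 269.6 CPM in the untreated mutant, 95.2, 89 and 76.8 CPM in wild type with ABA and 1223, 1273 and 1173 CPM in untreated wild type (difference 2.46 ± 0.44, adjusted p 0.0127), FBA2 gave a difference of 2.4 ± 0.41, adjusted p 0.00995 and CP12-1 of 2.33 ± 0.27, adjusted p 0.00172. CP12-1, a regulator of the cycle, was not called in the mutant, with 86.5, 88.9 and 89.8 CPM with ABA, against 96.1, 78.4 and 85.5 CPM untreated. For FBA1 the call was lost without mutant untreated replicate 2 (adjusted p 0.0587), and for FBA2, as a change within the mutant (-0.85 ± 0.28), the call was lost without mutant ABA replicates 1 and 2 and mutant untreated replicates 2 and 3, each left out alone (adjusted p 0.0583 to 0.168). Leaving out single mutant libraries gave lower calls of 5 without mutant untreated replicate 3 and 6 without mutant ABA replicates 1 and 2 and mutant untreated replicate 2.

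Chlorophyll synthesis genes were lower in 10 of 17 cases and higher in 1, CAO, the enzyme that makes chlorophyll b (81.2, 77.7 and 78 CPM with ABA, against 56.5, 46.1 and 44.6 CPM untreated, 0.69 ± 0.12, adjusted p 0.000474). HEMB1 fell by 0.87, HEMC by 0.88 and HEME2 by 0.75 on the log2 scale. CHLM was called lower (-0.42 ± 0.14), but the call was lost without mutant ABA replicates 1 and 2 and mutant untreated replicate 3, each left out alone (adjusted p 0.0759 to 0.111), and also with the correction for GC content and gene length (adjusted p 0.0512). Its response in wild type was -1.37 (difference 0.96 ± 0.19, adjusted p 0.0247), and for the difference the call was lost without mutant ABA replicates 1 and 3, mutant untreated replicates 1 and 2, wild type ABA replicates 1, 2 and 3 and wild type untreated replicates 1 and 2, each left out alone (adjusted p 0.0514 to 0.128). Counts of members lower were 5 without mutant ABA replicates 1 and 2 and 6 without mutant untreated replicates 2 and 3. Of 9 photorespiration genes 1 was called, AT1G80380, which was lower (-0.43 ± 0.15), and the call was lost without mutant ABA replicates 2 and 3 and mutant untreated replicates 1, 2 and 3, each left out alone (adjusted p 0.0512 to 0.0985).

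**Figure D3:**
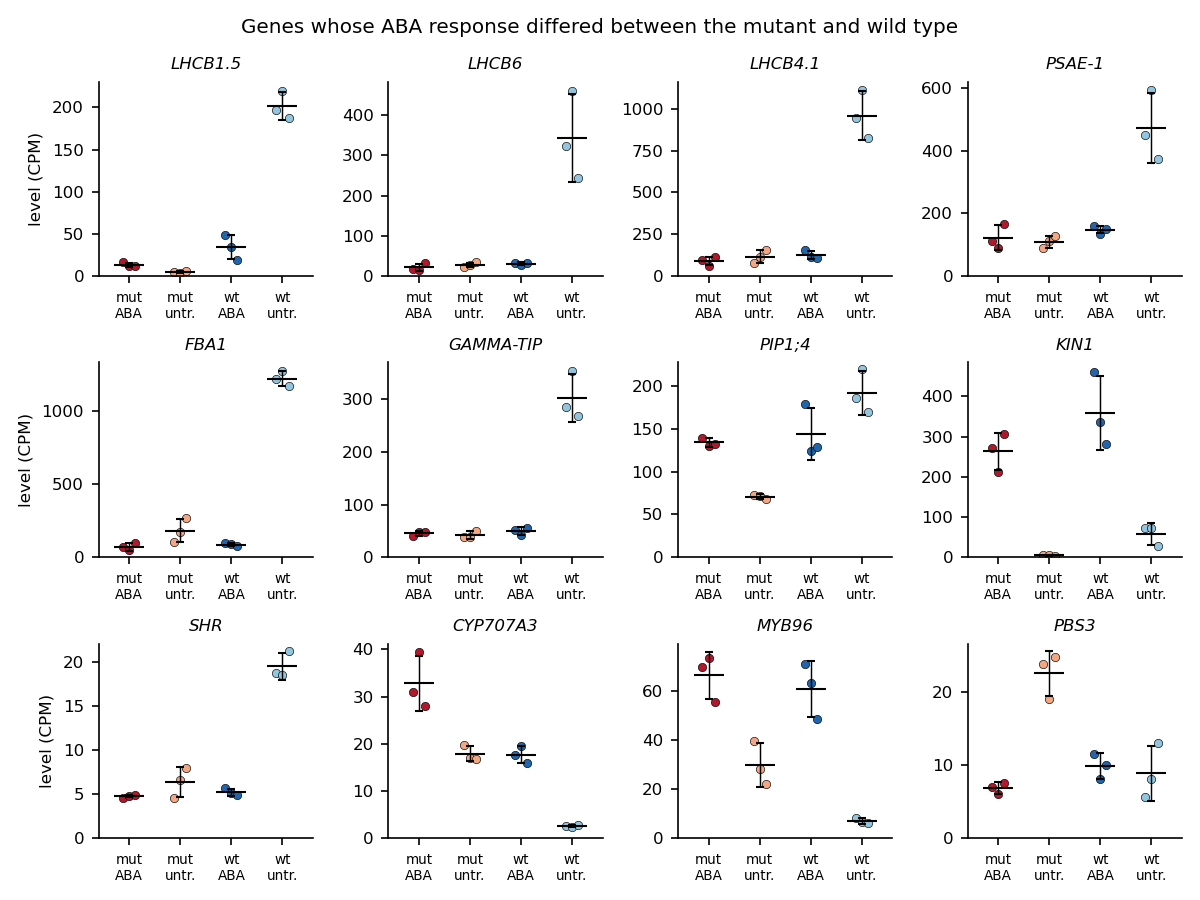
Normalised level (CPM) of 12 genes whose ABA response differed between genotypes, in mutant with ABA (mut ABA), untreated mutant (mut untr.), wild type with ABA (wt ABA) and untreated wild type (wt untr.). Points are libraries, black dashes are means and error bars SD (n = 3). In LHCB6 the untreated wild type libraries stand at 323, 459.9 and 243 CPM, above the other 9.

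Aquaporins are water channels, and those of the plasma membrane were higher in 4 of 13 cases and lower in 2 with ABA in the mutant, against none higher and 9 lower in wild type. PIP1;4 had 139.7, 129.6 and 133 CPM in the mutant with ABA, 72.9, 71.2 and 67.5 CPM in the untreated mutant, 179, 124 and 129 CPM in wild type with ABA and 185, 219.6 and 169 CPM in untreated wild type (difference 1.34 ± 0.22, adjusted p 0.00945). PIP2;5 had 13.8, 13.3 and 14.7 CPM with ABA, against 7.18, 6.2 and 6.49 CPM untreated in the mutant (1.07 ± 0.15, adjusted p 0.000129; difference 1.15 ± 0.21, adjusted p 0.0148). Both differences lost their call without mutant untreated replicate 2, and that of PIP2;5 also without wild type ABA replicate 2. PIP2A rose in the mutant (0.77 ± 0.20, adjusted p 0.00743) with a difference that was not called (adjusted p 0.0905). The lower calls were PIP1;5 and PIP2;4, whose libraries overlapped, and without mutant untreated replicate 3 neither was called. PIP1;5 also lost its call without mutant ABA replicate 1 or 2 or mutant untreated replicate 2 (adjusted p 0.101 to 0.151). The same held without wild type ABA replicate 2 or wild type untreated replicate 1 or 3 (adjusted p 0.0542 to 0.0571). A fit of only the 6 mutant libraries (adjusted p 0.081) and the replicate block (adjusted p 0.0553) did not call PIP1;5 either.

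All 5 tonoplast aquaporin genes listed here had enough reads, and 1 of them, DELTA-TIP, was called in the mutant. DELTA-TIP had 16.1, 14.3 and 18.3 CPM in the mutant with ABA, 24.3, 24.1 and 36.1 CPM in the untreated mutant, 28.1, 22.8 and 18.6 CPM in wild type with ABA and 181, 232 and 186 CPM in untreated wild type, a fall in the mutant (-0.80 ± 0.20, adjusted p 0.00623) that was smaller than in wild type (difference 2.31 ± 0.28, adjusted p 0.00191). GAMMA-TIP had 40.6, 47.3 and 48.9 CPM in the mutant with ABA, 38.1, 38.1 and 50.6 CPM in the untreated mutant, 52.6, 42.3 and 55.2 CPM in wild type with ABA and 285, 354 and 267 CPM in untreated wild type (difference 2.7 ± 0.24, adjusted p 0.000604). TIP2 gave a difference of 2.07 ± 0.29, adjusted p 0.00383 and TIP2;2 of 2.16 ± 0.43, adjusted p 0.0247, and for TIP2;2 the call was lost without mutant ABA replicate 3, mutant untreated replicates 1 and 2, wild type ABA replicates 1 and 2 and wild type untreated replicate 2, each left out alone (adjusted p 0.0522 to 0.101). TIP2;3, at most 2.66 CPM in any mutant library, was called neither in the mutant nor in the difference. In wild type all 5 listed genes were called lower. As with the antenna genes, the untreated wild type libraries of GAMMA-TIP and DELTA-TIP stood above all others.

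**Figure D4:**
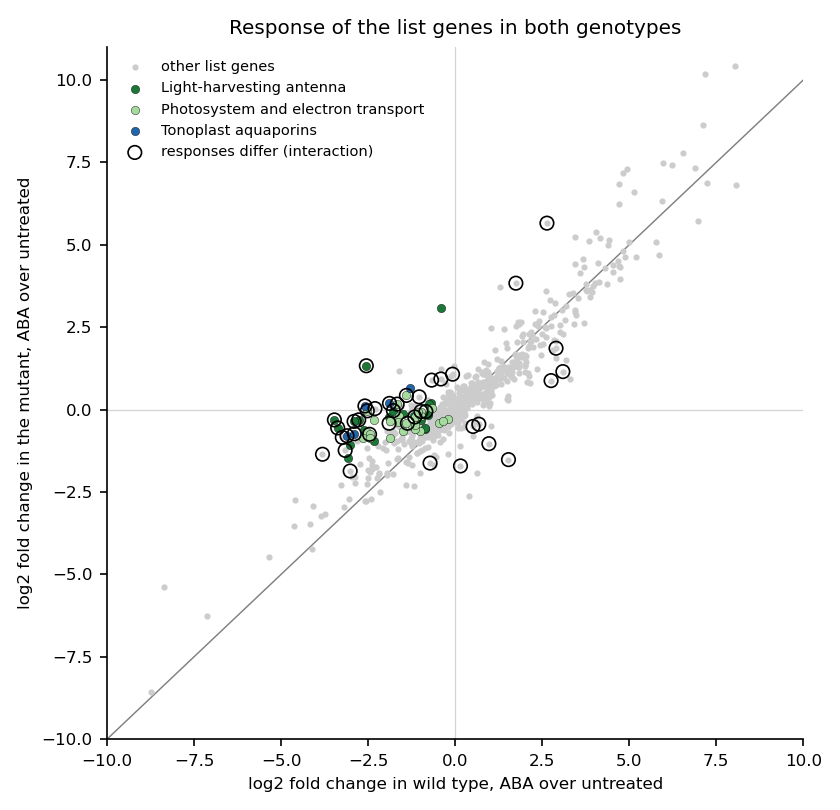
Log2 fold change with ABA in the mutant (vertical axis) against that in wild type (horizontal axis) for the measured genes of all 59 lists. Points are genes, the grey line marks equal responses, and rings mark genes whose responses differed in the interaction test. Antenna, photosystem and tonoplast aquaporin genes all lie below 0 on the wild type axis and mostly nearer to 0 on the mutant axis. Antenna medians are -0.31 in the mutant and -1.85 in wild type.

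Of 17 expansin A genes 10 were lower and 1 higher, with a median of -0.91. EXPA1 had 3.71, 3.51 and 8.03 CPM with ABA, against 56.3, 57.1 and 64.1 CPM untreated (-3.54 ± 0.30, adjusted p 1.76e-06) and EXPA14 1.7, 1.07 and 2.55 CPM with ABA, against 11.5, 12.1 and 13 CPM untreated (-2.78 ± 0.29, adjusted p 1.04e-05). EXPA8 had 2 reads with ABA and 102 untreated, 49.7-fold lower (interval 13.4 to 416). EXPA16 went the other way, with 24.3, 31.9 and 27.3 CPM with ABA, against 2.25, 2.29 and 2.35 CPM untreated (3.59 ± 0.19, adjusted p 7.39e-08). EXPA3 fell in the mutant (-1.24 ± 0.21) by less than in wild type (difference 1.92 ± 0.29, adjusted p 0.00519). Among 24 XTH genes, whose enzymes cut and rejoin xyloglucan, 6 were higher and 8 lower. These were shares of 25% and 33.3%, against 21.5% and 21.1% of all genes. XTH20 had 2.05, 1.63 and 3.56 CPM with ABA, against 49.9, 43.4 and 43.3 CPM untreated (-4.24 ± 0.39, adjusted p 3.72e-06) and XTH31 5.26, 6.1 and 11.3 CPM with ABA, against 64.7, 91.8 and 95.7 CPM untreated (-3.48 ± 0.32, adjusted p 3.52e-06), while XTH25 had 14.9, 17 and 18.4 CPM with ABA, against 0.669, 0.143 and 0.666 CPM untreated (5.09 ± 0.50, adjusted p 6.61e-06) and XTH23 36, 29.8 and 24.7 CPM with ABA, against 5.72, 8.3 and 8.44 CPM untreated (2.01 ± 0.22). Without mutant untreated replicate 2 or replicate 3 the higher calls among XTH genes numbered 3.

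Of 15 genes of mitosis and cytokinesis 8 were lower and none higher, and of 15 genes of DNA replication 9 were lower and none higher. The activator of the mitotic ubiquitin ligase CDC20.1 had 30.8, 26.7 and 36.7 CPM with ABA, against 44.9, 72.6 and 72.9 CPM untreated (-1.02 ± 0.19, adjusted p 0.00117), and CDC20.2 fell by 0.96. The kinesin gene HIK fell by 0.73, and the microtubule-associated protein gene PLE by 0.59. Among replication genes RNR1, a ribonucleotide reductase gene, had 77, 94.9 and 93.4 CPM with ABA, against 150.4, 157 and 145 CPM untreated (-0.77 ± 0.18, adjusted p 0.00451) and MCM3, a subunit of the replicative helicase, fell by 0.67. Of the replication genes 2 were called lower without mutant ABA replicate 1. CDK inhibitors split 3 higher and 3 lower of 10, shares of 30% each against 21.5% and 21.1% of all genes. LGO had 20.5, 18.9 and 20.7 CPM in the mutant with ABA, 12.2, 10.2 and 10.04 CPM in the untreated mutant, 14.9, 15.3 and 13.9 CPM in wild type with ABA and 24.8, 22.8 and 23.1 CPM in untreated wild type, so that it rose in the mutant (0.89 ± 0.12, adjusted p 9.36e-05) and differed from wild type, where it was lower (difference 1.57 ± 0.17, adjusted p 0.00115).

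Type-A response regulators, the early targets of cytokinin, were lower in 6 of 9 cases and higher in 1. ARR7 had 6.11, 11.5 and 11.4 CPM with ABA, against 47.8, 36.8 and 28.8 CPM untreated (-1.97 ± 0.32, adjusted p 0.000347), ARR15 had 0.802, 1.12 and 1.33 CPM with ABA, against 7.48, 5.15 and 3.15 CPM untreated (-2.27 ± 0.33, adjusted p 0.000152) and ARR5 4.91, 7.48 and 4.31 CPM with ABA, against 20.6, 14 and 11.6 CPM untreated (-1.46 ± 0.26). ARR16 was the higher one (0.81 ± 0.30), with overlapping libraries, and the call was lost without mutant ABA replicates 1 and 2, mutant untreated replicates 2 and 3 and wild type untreated replicates 1, 2 and 3, each left out alone (adjusted p 0.0549 to 0.166). CYP735A2, which makes trans-zeatin, was among the 12 largest falls of all genes, with 0.15, 0.0509 and 0 CPM with ABA, against 8.27, 9.87 and 10.9 CPM untreated (-7.02 ± 0.46; -8.22 without mutant ABA replicate 1). Aux/IAA repressors of auxin signalling split 6 higher and 6 lower of 24. These shares of 25% each were near the 21.5% and 21.1% of all genes. IAA28 stood at 0.69 ± 0.13 and IAA27 at -1.03 ± 0.13. Without mutant untreated replicate 2 or 3, or mutant ABA replicate 1, 3 were called higher.

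Of 15 gibberellin genes 4 were higher and 3 lower, shares of 26.7% and 20% near those of all genes. Among them the receptor genes GID1C (0.91 ± 0.15) and GID1A (0.58 ± 0.11) and the gibberellin-inactivating oxidase gene GA2OX6 (0.96 ± 0.21) rose, while GA2OX2 fell (-1.17 ± 0.26). Without mutant untreated replicate 1, 5 genes of this list were lower instead of 3. GAI, a DELLA repressor gene, was not called in the mutant (12.6, 14.1 and 13.9 CPM with ABA, against 12.5, 15 and 14.9 CPM untreated) and fell in wild type (-0.84, difference 0.78 ± 0.16, adjusted p 0.0291), but the call was lost without mutant ABA replicates 2 and 3, mutant untreated replicates 1 and 2, wild type ABA replicates 2 and 3 and wild type untreated replicates 1, 2 and 3, each left out alone (adjusted p 0.0527 to 0.101). Of 8 brassinosteroid genes 3 were higher and 1 lower: the synthesis genes DWF4 (0.83 ± 0.19) and BR6OX2 (0.78 ± 0.19) and the signalling factor gene BES1 (0.43 ± 0.15) rose, and the inactivating BAS1 fell (-0.73 ± 0.17). For BES1 the call was lost without mutant ABA replicates 1, 2 and 3, mutant untreated replicates 1 and 2, wild type ABA replicate 2 and wild type untreated replicate 1, each left out alone (adjusted p 0.0545 to 0.126). In the ethylene list 4 of 12 rose and 3 fell, and of the synthase genes ACS2 had 8.97, 6.1 and 3.94 CPM with ABA, against 0.548, 1.1 and 0.755 CPM untreated (2.96 ± 0.44, adjusted p 0.000189) while ACS6 fell (-0.51 ± 0.12), against a rise of 0.51 in wild type (difference -1.02 ± 0.17, adjusted p 0.00955). Without mutant untreated replicate 1, mutant ABA replicate 2 or mutant ABA replicate 3 the lower calls of this list numbered 1.

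Jasmonate synthesis held 1 call each way among 10 genes, with AOC2 at 271, 339 and 367 CPM with ABA, against 196, 154 and 233 CPM untreated (0.75 ± 0.19, adjusted p 0.00797). The lower one was LOX4 (-1.22 ± 0.43), and the call was lost without mutant ABA replicates 2 and 3 and mutant untreated replicates 2 and 3, each left out alone (adjusted p 0.0716 to 0.122). Without mutant ABA replicate 1, 2 genes of this list were lower. JAZ repressors, which hold jasmonate responses down, were higher in 5 of 12 cases and lower in 2. JAZ12 had 67.9, 57.4 and 72.6 CPM with ABA, against 24.2, 31 and 34.2 CPM untreated (1.15 ± 0.16, adjusted p 0.000122), JAZ11 rose by 1.04 ± 0.19, and JAZ4 fell (-1.69 ± 0.22). The higher calls numbered 3 without mutant untreated replicate 2.

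Salicylate and pipecolate immune genes were lower in 7 of 16 cases and higher in 2. CBP60G, a calmodulin-binding activator of salicylate synthesis, had 6.91, 5.49 and 4.04 CPM with ABA, against 27.7, 29.4 and 25.7 CPM untreated (-2.33 ± 0.29, adjusted p 4.85e-05). PBS3, which conjugates isochorismate on the way to salicylate, had 6.96, 6.05 and 7.61 CPM in the mutant with ABA, 23.8, 19 and 24.7 CPM in the untreated mutant, 11.6, 8.08 and 9.98 CPM in wild type with ABA and 5.6, 8.06 and 13 CPM in untreated wild type, and its fall (-1.71 ± 0.26) differed from wild type (difference -1.86 ± 0.36, adjusted p 0.0202), though without wild type untreated replicate 2 this difference was not called. ALD1, which makes a precursor of pipecolate, had 0.501, 0.712 and 0.798 CPM with ABA, against 2.62, 1.86 and 1.38 CPM untreated (-1.52 ± 0.32), where wild type had a rise of 1.53 in wild type (difference -3.05 ± 0.50, adjusted p 0.00874). In both genes the untreated mutant libraries lay above the treated ones. SARD1 rose (35.9, 27 and 34.2 CPM with ABA, against 16.4, 21.7 and 15.9 CPM untreated, 0.85 ± 0.21, adjusted p 0.00621), and so did AT5G52810 (2.08 ± 0.19). PR5 fell (-2.04 ± 0.43).

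Defence-linked WRKY factors split 3 higher and 5 lower of 15, shares of 20% and 33.3% against 21.5% and 21.1% of all genes. WRKY18 had 28, 30.5 and 32.7 CPM in the mutant with ABA, 92.3, 93.9 and 95.2 CPM in the untreated mutant, 18.3, 16.6 and 12.3 CPM in wild type with ABA and 25.7, 24.3 and 27.9 CPM in untreated wild type (-1.63 ± 0.14, adjusted p 2.41e-06 in the mutant), and its difference from wild type was -0.90 ± 0.20, adjusted p 0.0378. WRKY40 had 13.8, 9.97 and 13.7 CPM with ABA, against 22.5, 29.8 and 24.5 CPM untreated in the mutant (-1.04 ± 0.30, adjusted p 0.014) and a difference of -2.0 ± 0.45, adjusted p 0.04. The difference was no longer called in 10 of the 12 fits that left out a library for WRKY18 and in 11 for WRKY40. WRKY75 (1.81 ± 0.38), WRKY6 (0.93 ± 0.18) and WRKY25 (0.97 ± 0.22) rose. The lower calls numbered 2 without mutant ABA replicate 2 and mutant untreated replicate 2 and 3 without mutant ABA replicate 3. Of the 5 pattern receptor genes FLS2, the flagellin receptor, had 19.1, 20.04 and 16.8 CPM with ABA, against 35.3, 33.7 and 36.1 CPM untreated (-0.91 ± 0.13, adjusted p 0.000179) and EFR had 13.8, 12.3 and 12.4 CPM with ABA, against 20.9, 18.3 and 17.1 CPM untreated (-0.55 ± 0.14). CERK1 (43, 43.1 and 41 CPM with ABA, against 34.5, 36.7 and 33.1 CPM untreated), BAK1 (81, 76.3 and 67.9 CPM with ABA, against 77.8, 80.7 and 78.1 CPM untreated) and BIK1 (30.6, 24.8 and 27.1 CPM with ABA, against 25.31, 36.2 and 37.5 CPM untreated) were not called.

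Glucosinolates are defence compounds of the cabbage family. Of 15 aliphatic genes 5 were lower and 1 higher, and of 10 indole genes 3 were lower and 1 higher. MAM3, which lengthens the methionine chain, had 5.86, 8.7 and 20.4 CPM with ABA, against 80.2, 80.5 and 113 CPM untreated (-2.97 ± 0.50, adjusted p 0.000487; -3.64 without mutant ABA replicate 3), and CYP79F2 had 3.16, 5.04 and 8.19 CPM with ABA, against 31.9, 31.9 and 42.8 CPM untreated (-2.7 ± 0.35, adjusted p 6.98e-05). The regulator MYB76 rose at a low level (4.26, 6.46 and 6.6 CPM with ABA, against 1.22, 2.1 and 2.09 CPM untreated, 1.66 ± 0.28). The aliphatic count lower was 3 without mutant ABA replicates 1 and 2 and mutant untreated replicate 3, 8 without mutant untreated replicate 1 and 9 without mutant ABA replicate 3. Among the indole genes CYP81F2 had 1.7, 1.63 and 2.13 CPM with ABA, against 4.68, 8.82 and 9.64 CPM untreated (-2.09 ± 0.40, adjusted p 0.00129), the regulator MYB51 fell (-0.99 ± 0.15), and the regulator MYB34 rose (0.72 ± 0.14).

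Flavonoid and anthocyanin enzymes rose in 9 of 11 cases and none fell, with a median of 2.53. LDOX, which makes the coloured anthocyanidins, had 539.6, 925 and 993 CPM with ABA, against 88.3, 99.8 and 71.1 CPM untreated (3.25 ± 0.29, adjusted p 3.41e-06), UF3GT had 56.9, 65.6 and 87.8 CPM with ABA, against 7.42, 13.9 and 11.7 CPM untreated (2.66 ± 0.23, adjusted p 2.55e-06) and AT4G14090 had 133, 157 and 221 CPM with ABA, against 12.5, 26.2 and 25 CPM untreated (3.0 ± 0.28). CHS, the first enzyme of the pathway, and FLS1, which leads to flavonols, were not called. Of the regulators 6 of 11 rose and 2 fell. TT8 had 44, 69.5 and 67.7 CPM with ABA, against 4.32, 6.06 and 5.11 CPM untreated (3.54 ± 0.21, adjusted p 1.39e-07), MYB90 had 85.8, 160.4 and 136 CPM with ABA, against 13.1, 11.2 and 7.06 CPM untreated (3.61 ± 0.30, adjusted p 1.81e-06) and PAP1 rose by 2.35 ± 0.23. The repressor MYBL2 rose as well (2.22 ± 0.28). The 2 lower calls, GL3 (-0.65 ± 0.19) and EGL3 (-0.63 ± 0.23), were both lost without mutant ABA replicate 1 and, separately, without replicate 2.

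Small heat shock proteins are chaperones that bind unfolded proteins, and 8 of 9 measured genes rose, with a median of 4.82. HSP22.0 had 213, 209.7 and 215 CPM with ABA, against 0, 0.429 and 0 CPM untreated (10.41 ± 0.90, adjusted p 2.33e-06). Its 9 untreated reads all lay in mutant untreated replicate 2. Without that library the fitted log2 fold change of 15 was against 0 reads and is not an estimate of size. The log2 fold change was 9.77 without mutant untreated replicate 3. HSP17.4 had 11.7, 7.78 and 12.1 CPM with ABA, against 0, 0.0954 and 0.0888 CPM untreated (7.18 ± 0.50, adjusted p 4.58e-07), HSP18.2 had 25.5, 16.4 and 26.49 CPM with ABA, against 0.913, 0.954 and 1.29 CPM untreated (4.42 ± 0.23) and AT1G52560 had 61.6, 48.4 and 46.7 CPM with ABA, against 1.1, 2.05 and 1.24 CPM untreated (5.14 ± 0.24, adjusted p 3.92e-08). No untreated library of these 4 genes exceeded 2.05 CPM. AT5G51440 was the member called lower (-1.69 ± 0.50), and the call was lost without mutant ABA replicate 2 and mutant untreated replicate 2, each left out alone (adjusted p 0.0528 to 0.0618). Of 12 heat shock factors 6 rose and 1 fell. HSFA6A had 1572 reads with ABA and 1 untreated, a 1613-fold higher level (interval 289 to 63732), and HSFA6B had 114, 151 and 89.5 CPM with ABA, against 6.33, 7.49 and 3.69 CPM untreated (4.35 ± 0.30, adjusted p 3.78e-07). HSFB2A rose (1.86 ± 0.15) by less than in wild type (difference -1.04 ± 0.21, adjusted p 0.0286), and the call was lost without mutant ABA replicates 1, 2 and 3, mutant untreated replicate 2, wild type ABA replicates 1 and 2 and wild type untreated replicates 1 and 2, each left out alone (adjusted p 0.0548 to 0.0924). HSFA3 fell (-1.34 ± 0.37).

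Of 15 iron genes 6 were lower and 3 higher. IRT1, the root iron transporter, had 0.401, 0.458 and 0.372 CPM with ABA, against 13.1, 35.1 and 46.8 CPM untreated (-6.25 ± 0.60, adjusted p 5.69e-06), and FRO2, the ferric reductase that feeds it, had 2.66, 3.46 and 2.02 CPM with ABA, against 12.9, 30.7 and 33.2 CPM untreated (-3.24 ± 0.39, adjusted p 4.18e-05). AT2G28160, annotated as the FER-like regulator of iron uptake (-1.63 ± 0.23), and the nicotianamine synthase gene NAS4 (-1.74 ± 0.34) fell with them. Untreated replicate 1 held the lowest untreated level of IRT1 and FRO2. BHLH101 (9.72, 12.3 and 5.32 CPM with ABA, against 3.47, 3.48 and 4.04 CPM untreated, 1.31 ± 0.34, adjusted p 0.00827) and the ferritin gene FER1 (313, 198 and 165 CPM with ABA, against 106, 66.2 and 117 CPM untreated, 1.22 ± 0.31, adjusted p 0.00659) were higher. The third higher call, PYE (0.43 ± 0.16), was lost in 9 of the fits that left out a library. Of 13 root markers 5 were lower, and CASP5 was higher (1.45, 1.12 and 1.81 CPM with ABA, against 0, 0.0954 and 0.0888 CPM untreated, 4.33 ± 0.61, adjusted p 0.000129). The number of root markers called lower was 2 without mutant untreated replicate 3, 3 without mutant ABA replicates 1 and 2 and 8 without mutant untreated replicate 1, and the part of root tissue amount in the iron calls was not tested. SHR, a root patterning gene, was not called in the mutant (-0.42 ± 0.19) and differed from wild type (difference 1.48 ± 0.26, adjusted p 0.0112), though the call was lost without mutant untreated replicate 2 (adjusted p 0.0506).

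Of 12 circadian clock genes 5 were called higher with ABA and none lower. CCA1 had 19.2, 18.16 and 11.4 CPM with ABA, against 2.43, 2.19 and 1.64 CPM untreated (2.97 ± 0.25, adjusted p 1.82e-06), LHY had 26.2, 27.4 and 19.95 CPM with ABA, against 8.09, 8.63 and 7.77 CPM untreated (1.58 ± 0.26, adjusted p 0.000406), and RVE8 (1.17 ± 0.21) and RVE1 (0.95 ± 0.21) rose with them. TOC1 and GI were among the 7 that were not called. The labels give no harvest time, so time of day and treatment cannot be told apart. Floral markers AP1, PI and SEP3 were not called. Of the seed and embryo markers FUS3, a regulator of seed maturation, had 51 reads with ABA and 1 untreated (52.3-fold higher, interval 8.98 to 2106), and the oleosin gene OLEO4 had 3 with ABA and 23 untreated (7.47-fold lower, interval 2.26 to 38.9). For OLEO4 the call was lost without mutant untreated replicate 2 (adjusted p 0.0508). Neither FUS3 nor OLEO4 exceeded 1.02 CPM in any mutant library.

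Several of the largest rises were of genes with few or no reads without ABA. AT5G28520, annotated as a mannose-binding lectin, had 79.2, 78.6 and 58.4 CPM with ABA, against 0, 0.0954 and 0 CPM untreated, from 4223 and 2 reads (2165.97-fold higher, interval 599 to 17891). AT2G37870, a lipid transfer family gene, had 33.5, 25.9 and 48.7 CPM with ABA, against 0, 0 and 0.0888 CPM untreated (1074-fold higher, interval 297 to 8874). The chloroplast protease gene FTSH6 had 510 reads with ABA and 0 untreated, at least 174-fold higher, and the methyltransferase gene AT5G04380 had 326 and 0, at least 111-fold higher. The gibberellin-linked peptide gene GASA3 had 10.9, 8.7 and 13.4 CPM with ABA, against 0, 0 and 0.0444 CPM untreated, and AT3G17520, annotated as a LEA family gene, had 234, 158 and 160.2 CPM with ABA, against 0, 1.57 and 0.133 CPM untreated (8.26 ± 1.36; 11.12 without mutant untreated replicate 2). AT3G03341 (10.7, 9.51 and 12 CPM with ABA), AT2G35070 (6.76, 7.12 and 6.22 CPM) and the transcribed pseudogene AT2G16367 (41.8, 22.4 and 37.2 CPM) had at most 0.133 CPM in any untreated library.

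The largest falls included receptor-like kinases. CRK30, a cysteine-rich receptor-like kinase gene, had 0, 0.153 and 0.106 CPM with ABA, against 39.8, 36 and 32.1 CPM untreated (-8.61 ± 0.35; -9.27 without mutant ABA replicate 2). AT1G05700, a leucine-rich repeat kinase gene, had 0.1002, 0.102 and 0 CPM with ABA, against 20.3, 19.7 and 18.5 CPM untreated (-8.03 ± 0.41, adjusted p 6.93e-08), and AT1G26250, annotated as an extensin-like protein, had 0.2004, 0.305 and 0.0532 CPM with ABA, against 51, 58.1 and 64.1 CPM untreated (-8.21 ± 0.52, adjusted p 2.27e-07). The lipase family gene AT3G27950 had 0 reads with ABA and 340 untreated, at least 110.5-fold lower. In all 4 genes no treated library exceeded 0.305 CPM. RL3 (0, 0.102 and 0 CPM with ABA, against 6.69, 5.96 and 6.66 CPM untreated, 188-fold lower, interval 51.6 to 1555) and MEE3 (0.501, 0.153 and 0.372 CPM with ABA, against 16.3, 29.9 and 31 CPM untreated, -6.21 ± 0.37) were lower too. CYP82C4, a cytochrome P450 gene, had 2 reads with ABA and 344 untreated (168-fold lower, interval 46.1 to 1390.1). AACT1, annotated as an anthocyanin acyltransferase, had 0.2004, 0.102 and 0.106 CPM with ABA, against 8.33, 5.96 and 19.1 CPM untreated (-6.29 ± 0.64; -5.64 without mutant untreated replicate 3). The methyltransferase gene AT1G15125 had 0.15, 0.0509 and 0.372 CPM with ABA, against 10.9, 18.5 and 26.3 CPM untreated (-6.58 ± 0.58; -7.44 without mutant ABA replicate 3).

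Across all genes the response in the mutant was called higher than in wild type on the log2 scale for 354 genes, 1.66% of those tested. It was called lower for 30, 0.141%, or 1.8% in either direction. Of the 354, 209 were called lower in wild type and not called in the mutant, 68 were lower in both genotypes, and 42 were higher in the mutant and lower in wild type. Of the 30, 10 were lower in the mutant and not called in wild type, and 8 were lower in the mutant and higher in wild type. DESeq2 gave 693 and 89. Leaving out mutant untreated replicate 2 gave 117 higher and 12 lower, mutant untreated replicate 1 gave 218 and 18, and mutant ABA replicate 3 gave 199 and 17. Leaving out wild type ABA replicate 2 gave 150 and 15, wild type untreated replicate 1 gave 202 and 14, and wild type untreated replicate 2 gave 181 and 15. The lower count was also 16 without wild type ABA replicate 1 and 19 without mutant ABA replicate 1. Outside the lists the largest positive differences were at the ribosomal RNA loci AT2G01020 (3.91 ± 0.51, adjusted p 0.00284) and AT3G41979 (3.8 ± 0.49, adjusted p 0.00284). Correcting for GC content and gene length gave 2.48 for AT2G01020 and 2.38 for AT3G41979. Rows of rRNA, snoRNA and snRNA held 0.134%, 0.1201% and 0.155% of counts in untreated wild type replicates 1 to 3. The highest share elsewhere was 0.09405%, in mutant untreated replicate 3. TMM scaling factors were 0.887, 0.857 and 0.912 in untreated wild type, and the lowest elsewhere was 0.974, in wild type ABA replicate 1. The libraries were prepared for mRNA, and the part of library make-up in these differences was not tested. AT2G01020 had 3.01, 2.19 and 2.39 CPM in the mutant with ABA, 2.07, 1.91 and 3.38 CPM in the untreated mutant, 5.32, 2.49 and 1.59 CPM in wild type with ABA and 41.7, 53 and 42.2 CPM in untreated wild type. AT5G11550, annotated as an ARM repeat protein, had 1.5, 2.03 and 1.97 CPM in the mutant with ABA, 1.64, 1.96 and 1.87 CPM in the untreated mutant, 1.43, 1.43 and 1.38 CPM in wild type with ABA and 10.4, 16.5 and 12.2 CPM in untreated wild type (difference 3.21 ± 0.31, adjusted p 0.000975). In both the untreated wild type libraries stood above all others.

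Among the negative differences, NUDT21, a nudix hydrolase gene, had 40.4, 31.8 and 35 CPM in the mutant with ABA, 97.8, 64.1 and 69.2 CPM in the untreated mutant, 26.6, 20.6 and 17.8 CPM in wild type with ABA and 8.98, 7.76 and 10.8 CPM in untreated wild type, falling in the mutant (-1.11 ± 0.19) and rising in wild type (1.24; difference -2.35 ± 0.28, adjusted p 0.00191). AT5G45630, annotated as a senescence regulator, had 81.1, 66.6 and 41.4 CPM in the mutant with ABA, 6.57, 7.68 and 4.58 CPM in the untreated mutant, 38.5, 28.2 and 29.3 CPM in wild type with ABA and 0.466, 0.554 and 0.421 CPM in untreated wild type (difference -2.71 ± 0.44, adjusted p 0.00874). In both genes the untreated mutant libraries lay above the untreated wild type ones. The same held for CYP707A3 and MYB96, described above.

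Promoter motifs were counted in the same window, set by the start of the gene record, for all nuclear loci of the annotation, pseudogenes included. The ABRE core ACGTGNC was in 8.96% of 37897 such promoters and in 11.6% of those of the genes tested. It was in 40.9% of the 193 promoters of genes called higher by at least 4 on the log2 scale, 24.6% of those higher by 2 to 4, and in 828 of all 4560 nuclear genes called higher. Genes that were not called had it in 10.4% and genes called lower in 7.79%. More than 1 copy was present in 18.7% of the most raised group and in 2.65% of all tested genes. The G-box CACGTG, which can share its bases with the ABRE core, was in 35.8% of the most raised group, 7.98% of genes not called, 5.41% of genes called lower and 6.46% of all loci. The drought response element (DRE) core ACCGAC was in 9.33% in the most raised group, 6.36% in genes not called, 5.14% in genes called lower and 5.56% of all loci. Of the 353 nuclear genes whose response was called higher in the mutant than in wild type, 14.2% had the ABRE core. The mean GC content of the promoters was 34% in the most raised group and 32.1% in all tested genes. Both strands were searched, and a match is a description of letters only.

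**Figure D5:**
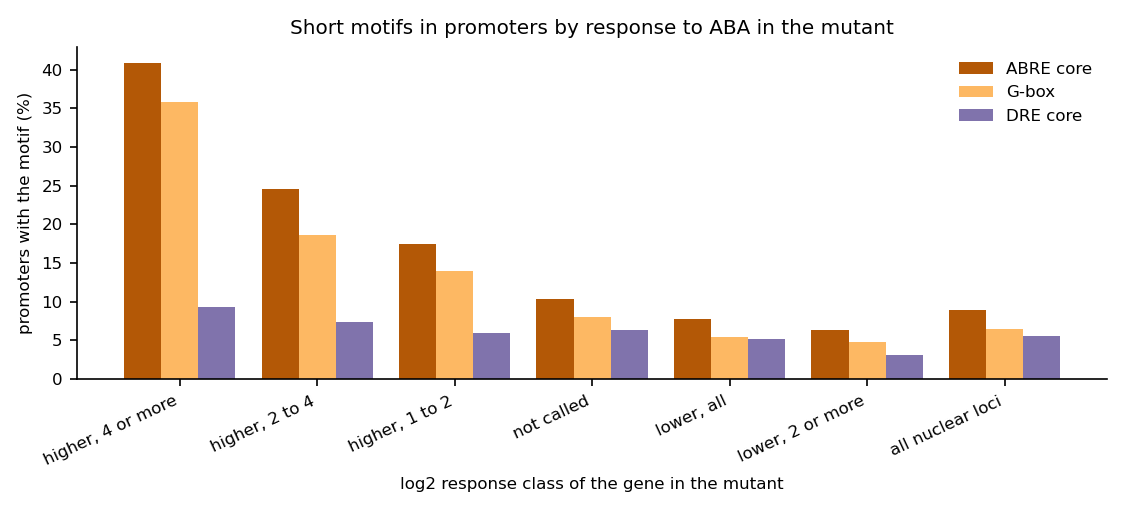
Share (%) of 300-base promoter windows with the ABRE core, the G-box or the DRE core on either strand, by the log2 response class of the gene in the mutant. The class of lower genes includes those lower by 2 or more, and the class at the right holds all nuclear loci of the annotation. The ABRE core share is 40.9% in the most raised class and 10.4% in genes not called.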

How the data were processed

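RNA of 2-week-old seedlings was sequenced after stranded mRNA library preparation (TruSeq Stranded mRNA), per the labels. The table holds raw read counts per gene, as deposited by the authors, in 12 columns, 3 per group, which the series text calls biological replicates. The submitters' processing notes name Trim Galore 0.3.3, edgeR and the TAIR10 build. The sources used here name no aligner, counter or strand setting, so reads of overlapping or antisense genes cannot be told apart.

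All 12 libraries were fitted together with edgeR 4.0.16 in R 4.3.3: filterByExpr by group, TMM factors, 1 mean per group and the quasi-likelihood F test, with Benjamini-Hochberg adjustment over the 21322 genes tested and calls under 0.05. The script was tested on simulated data. Contrasts were ABA against untreated in the mutant, the same in wild type, and their difference. Levels are CPM with TMM library sizes. Where a group had at most 3 reads, the ratio of summed counts is given with an exact 95% interval that covers counting error only, or, against 0 reads, as a bound at 3 counts over the group.

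Genes are named where they were among the 12 largest rises or falls (at least 5 CPM, no overlap), the 4 called members of a list with the smallest adjusted p, called against their list, called in the difference, among its 8 largest each way, or in a panel of ABA pathway genes. The members and lists were chosen with earlier results of these data known. Of 741 listed genes 706 could be tested. Members named only as not called, or as untested, were chosen after their values were seen.

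Alternatives were other scaling factors and filters, DESeq2 1.42.0, the mutant libraries alone, the replicate number as a block, a gene length and GC correction, and leaving out each library.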

Additional observations from a re-analysis of the deposited data

Results flagged for a closer look

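The ABA response of 354 genes was higher and that of 30 lower on the log2 scale in the mutant than in wild type by the interaction term of edgeR's quasi-likelihood test at an adjusted p under 0.05. Named genes that this test called are given here with their difference, mutant response minus wild type response, on the log2 scale.

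In the ABA pathway and its protective proteins the difference was 1.15 for PYR1, -1.88 for CYP707A3, 3.02 for KIN1, 2.09 for KIN2, -1.94 for MYB96 and -1.12 for KAT1. Among antenna genes it was 3.88 for LHCB1.5, 3.16 for LHCB6, 2.82 for LHCB1.2, 2.55 for LHCB4.1, 2.46 for LHCB1.3 and 1.74 for LHCB2.1. Among photosystem genes it was 2.49 for PSAL, 1.83 for PSBW, 1.83 for PSAE-1, 1.71 for PSBY, 0.94 for PSAD-2 and 0.92 for PSAG. In carbon fixation and chlorophyll synthesis it was 2.46 for FBA1, 2.4 for FBA2, 2.33 for CP12-1 and 0.96 for CHLM.

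Aquaporin genes gave 2.7 for GAMMA-TIP, 2.31 for DELTA-TIP, 2.16 for TIP2;2, 2.07 for TIP2, 1.34 for PIP1;4 and 1.15 for PIP2;5. Growth and lipid genes gave 1.92 for EXPA3, 1.57 for LGO, 1.48 for SHR, 1.42 for LTPG1 and 0.78 for GAI. Stress and defence genes gave -3.05 for ALD1, -2.0 for WRKY40, -1.86 for PBS3, -1.04 for HSFB2A, -1.02 for ACS6 and -0.90 for WRKY18.

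Outside the lists it was 3.91 for AT2G01020, 3.8 for AT3G41979, 3.21 for AT5G11550, 3.34 for AT2G43540, 3.34 for AT1G19960 and 3.08 for AT3G63390. The negative ones were -3.04 for AT4G12735, -2.71 for AT5G45630, -2.35 for NUDT21 and -1.85 for WAKL2. The call of AT4G12735 was lost in 10 of the 12 fits that left out a library, with the replicate block and with the correction for GC content and gene length, and that of WAKL2 in 8 of the 12. The correction also gave 2.12 for AT5G11550.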

How the results depend on the processing

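The counts of genes called in the mutant stayed within 1.5 times of 4580 higher and 4490 lower under the 21 alternatives run, and fits that left out 1 library gave 3485 to 4711 higher and 3151 to 4733 lower. Upper-quartile factors gave 3647 and 5515, with 39.8% of calls higher. Among the genes described above they ended the calls of PYL9, ARR16, BES1 and PYE (adjusted p 0.0725 to 0.161). A fit of only the 6 mutant libraries gave 3960 higher and 4202 lower. It ended the calls of UGT71C5, LHCB4.3, FBA2, BES1, PIP1;5 and HT1 (adjusted p 0.0509 to 0.0876). With the replicate number as a block, 4344 were higher and 4311 lower, and the difference between genotypes was called for 262 and 26 genes. With the correction for GC content and gene length the difference was called higher for 237 genes and lower for 33. Of these, 211 and 21 were also called in the main fit. Deviations of same-numbered mutant libraries correlated at -0.0984, -0.264 and 0.3005, so the numbers were not taken to pair the samples within the mutant. Between mutant ABA and wild type ABA the same-numbered libraries correlated at 0.537, 0.0599 and 0.350. Between the untreated groups they correlated at -0.000345, 0.0333 and 0.107. These values do not settle whether the numbers pair samples across genotypes, and the main fit held no block.

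For the difference between genotypes DESeq2's Wald test gave 693 genes higher and 89 lower, against 354 and 30, and fits that left out 1 library gave 117 to 440 higher and 12 to 45 lower. The cause was not tested. Of 285 named results in the mutant, 239 kept their direction and call under each alternative run and 46 lost their call in some. Of 49 named differences between genotypes, 25 kept theirs and 24 lost it in some. No named result reversed. Of 118 list counts, 74 stayed within 1.5 times and 44 did not.

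With 3 libraries a group, genes with few reads were the least precise, and ratios against 1 to 3 reads carry wide counting intervals.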
